A study of Mus musculus with 13 samples.

Results

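The regions described here are H3K27ac peaks that lie far from genes and that were present in some mouse melanoma cell lines and missing from others. Peaks from 9 lists, 1 list for each line, were joined wherever they overlapped or touched, which gave 59668 merged regions on all chromosomes, 58221 of them on autosomes. A region was kept if it was autosomal, narrower than 10 kb, at least 100 kb from every annotated start of a protein-coding transcript (transcription start site, TSS) and overlapped by peaks of 2 to 8 of the 9 lists. These criteria left 4820 far variable regions, hereafter members, out of 30321 autosomal regions narrower than 10 kb that were present in 2 to 8 lists. The members were chosen by the presence or absence of peaks in the 9 lists, so the number of lists that call a member and the lines that call it are given as a description. They enter a test only against promoter calls, which the rule had not used.

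The lines were established from melanomas of transgenic mice. All of the mice carried a Tyr::NRAS transgene, in which mutant NRAS is expressed from the tyrosinase promoter, were Cdkn2a +/- and had floxed alleles of Cdh1 (F/F), the gene of E-cadherin. The ΔEcad mice also carried Tyr::CreA, which deletes Cdh1 in the melanocyte lineage, whereas the Ecad mice did not. The Ecad lines were Ma_1007 and Ma_1181 (male) and Ma_1014 and Ma_1039 (female). The ΔEcad lines were Ma_1062 and Ma_1456 (male) and Ma_1057, Ma_1064 and Ma_1069 (female). Each line is a separate culture with 1 list, the age of the mice is not in the labels, and they name no treatment. The comparison of genotypes within each sex asks which acetylated regions go with loss of E-cadherin in female or male melanoma cells.

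H3K27ac, the acetylation of lysine 27 on histone H3, marks active promoters and active enhancers. Enhancers are stretches of DNA that bind transcription factors and raise transcription of a gene that can lie far away on the same chromosome. Large intervals without protein-coding genes, called gene deserts, often flank genes for developmental transcription factors, and in the melanocyte lineage SOX10 and MITF are factors that occupy such distal elements. A region called here is a candidate enhancer by its mark and position only, and the gene nearest to it need not be the gene it acts on.

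Autosomal lists held 20350 (Ma_1069) to 40824 peaks (Ma_1007). The list of Ma_1007 stood apart by its length. The melanocytic identity of the lines was checked at promoters, where a promoter was called if a peak lay within 1 kb of a TSS of the gene. Promoters of Sox10, Mitf, Dct, Tyr, Pmel and Mlana were called in 9 of 9 lists, and that of Tyrp1 in 6, the exceptions being Ma_1181, Ma_1062 and Ma_1069. Promoters of Ptprc (leukocytes), Pecam1 and Cdh5 (endothelium), Krt14 and Krt5 (keratinocytes), and Col1a1 and Pdgfrb (fibroblasts and mural cells) were called in 0 lists. The Cdh1 promoter was called in 0 lists, Ecad lines included, so that it is no check of the genotype labels.

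The sequences of 5 members are given as examples and do not represent the members as a whole. Each is 300 bases of the GRCm38 plus strand centred on the summit of the member's strongest peak, in lower case, with capitals marking the letters of the motifs that were searched (listed with the motif results). The first and second are the members among the 10 strongest whose window held a TCF/LEF match. They lie in an intron of Grm5 (chr7:87925717-87926016), the gene next to the pigment gene Tyr, and in an intron of Dchs2, a cadherin-related gene (chr3:83234842-83235141).
Grm5 intron: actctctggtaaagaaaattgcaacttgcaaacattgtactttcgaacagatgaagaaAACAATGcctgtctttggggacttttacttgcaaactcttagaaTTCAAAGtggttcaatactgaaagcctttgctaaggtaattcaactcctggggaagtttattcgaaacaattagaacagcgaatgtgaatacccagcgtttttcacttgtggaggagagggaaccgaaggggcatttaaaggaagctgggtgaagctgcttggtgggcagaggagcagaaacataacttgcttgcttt
Dchs2 intron: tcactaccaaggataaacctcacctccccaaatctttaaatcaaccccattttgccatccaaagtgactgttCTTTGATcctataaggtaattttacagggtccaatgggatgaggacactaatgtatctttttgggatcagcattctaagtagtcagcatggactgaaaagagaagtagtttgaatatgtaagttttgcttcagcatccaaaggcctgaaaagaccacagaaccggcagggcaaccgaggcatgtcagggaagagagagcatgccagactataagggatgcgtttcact
The others are the strongest members called in all 3 female ΔEcad lists and no other (chr13:101442148-101442447, near Pik3r1), in all 4 Ecad lists and no other (chr9:78772562-78772861, near Cd109), and in all 5 female lists and no male list (chr1:51104751-51105050, in an intron of Tmeff2). A window without capitals held no match to any of the motifs.
near Pik3r1: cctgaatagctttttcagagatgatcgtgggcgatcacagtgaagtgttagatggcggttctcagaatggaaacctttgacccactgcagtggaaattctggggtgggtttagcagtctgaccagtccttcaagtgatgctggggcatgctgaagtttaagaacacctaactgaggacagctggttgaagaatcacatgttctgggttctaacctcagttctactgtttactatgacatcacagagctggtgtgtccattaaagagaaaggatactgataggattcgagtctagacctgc
near Cd109: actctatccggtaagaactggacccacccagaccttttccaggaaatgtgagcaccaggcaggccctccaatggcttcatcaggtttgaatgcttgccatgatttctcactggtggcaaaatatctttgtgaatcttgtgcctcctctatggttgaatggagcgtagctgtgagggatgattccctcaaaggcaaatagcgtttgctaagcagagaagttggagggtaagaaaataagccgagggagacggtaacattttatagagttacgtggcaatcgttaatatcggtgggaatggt
Tmeff2 intron: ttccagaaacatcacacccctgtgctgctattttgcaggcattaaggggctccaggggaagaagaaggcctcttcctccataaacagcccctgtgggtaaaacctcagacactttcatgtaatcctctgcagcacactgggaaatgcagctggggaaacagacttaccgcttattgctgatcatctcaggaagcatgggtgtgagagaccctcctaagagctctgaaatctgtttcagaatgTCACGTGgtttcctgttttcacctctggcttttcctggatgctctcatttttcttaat
The Grm5 window held a SOX and a TCF/LEF match, the Dchs2 window a TCF/LEF match and the Tmeff2 window an E-box of the MITF type. The Grm5 and Dchs2 windows were picked for their TCF/LEF match, which 15.6% of all members held. Not shown are the windows of the strongest members between Myc and Gsdmc, A1bg and Myc, and Rad51b and Zfp36l1. Also not shown is that of the strongest member of the male lines alone. None of these unshown windows held a match.

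Most members lay between genes. Of the 4820, 3735 (77.5%) were outside protein-coding genes, 2930 (60.8%) were outside every annotated gene, and 805 lay over a gene of another class, such as a long non-coding RNA gene. The other 1085 (22.5%) were inside a protein-coding gene more than 100 kb from its starts. Members were a median of 208 kb from the nearest protein-coding TSS, up to 2563 kb. The distance was under 200 kb for 2314 members (48.0%), 200 to 500 kb for 1861, 500 kb to 1 Mb for 525 and 1 Mb or more for 120. Their median width was 1572 bp (273 to 9922 bp). The members just inside the distance limit were 100004 bp from Runx1, 100013 bp from Bicc1 and 100060 bp from Irf2bp2, while variable regions 99981 bp from Gm5426, 99971 bp from Rpl14 and 99952 bp from Klf7 were just outside it. With the starts of all annotated genes in place of protein-coding ones, 1072 regions met the rule.

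Far regions were mostly called in few lists. Among regions at least 100 kb from a TSS, 4116 were called in 1 list, 4820 in 2 to 8 and 523 in all 9. Of the members, 1516 (31.5%) were called in 2 lists, 941 in 3, 682 in 4, 529 in 5, 411 in 6, 373 in 7 and 368 (7.63%) in 8. The share of autosomal regions that lay 100 kb or more from a TSS was 20.9% among regions in 1 list, 18.6% among those in 2, 11.5% among those in 8 and 6.89% among those in 9. The median percentile of the calls, ranking all autosomal peaks of a list by their −log10 q and pooling the calls of all lists, was 27.5 for members in 2 lists, 43.5 for members in 5 and 63.4 for members in 8.

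The number of members called was lowest in Ma_1069 at 1358 (28.2%), had its median in Ma_1456 at 2101 (43.6%) and was highest in Ma_1007 at 3662 (76.0%). Ma_1007 was far above the other 8 lines, which reached at most 2350. The male Ecad lines called 2651 ± 1430 members (SD, n = 2), the female Ecad lines 2339 ± 15.6 (n = 2), the male ΔEcad lines 1860 ± 340 (n = 2) and the female ΔEcad lines 1849 ± 437 (n = 3), so that the ranges of the genotypes overlapped in male lines (1640 to 3662 and 1620 to 2101) and not in female lines (2328 to 2350 and 1358 to 2193). Far members made up 18.2% (Ma_1064) to 21.8% (Ma_1007) of the variable regions called at 1 kb or more from a TSS. In female lines this share did overlap between genotypes, with 19.66% and 20.87% in Ecad and 18.16% to 20.94% in ΔEcad lines. Calls of variable regions at 1 kb or more and under 100 kb from a TSS also overlapped there (8825 and 9604 against 5127 to 9886). In female lines the counts of members were thus apart between genotypes, while their share and the calls under 100 kb were not. None of these was tested, and with 2 and 3 lines no difference particular to far regions is read from them. Far regions found in a single list numbered 1758 in Ma_1007, 735 in Ma_1456 and 65 to 391 in each of the other lines.

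**Figure D1:**
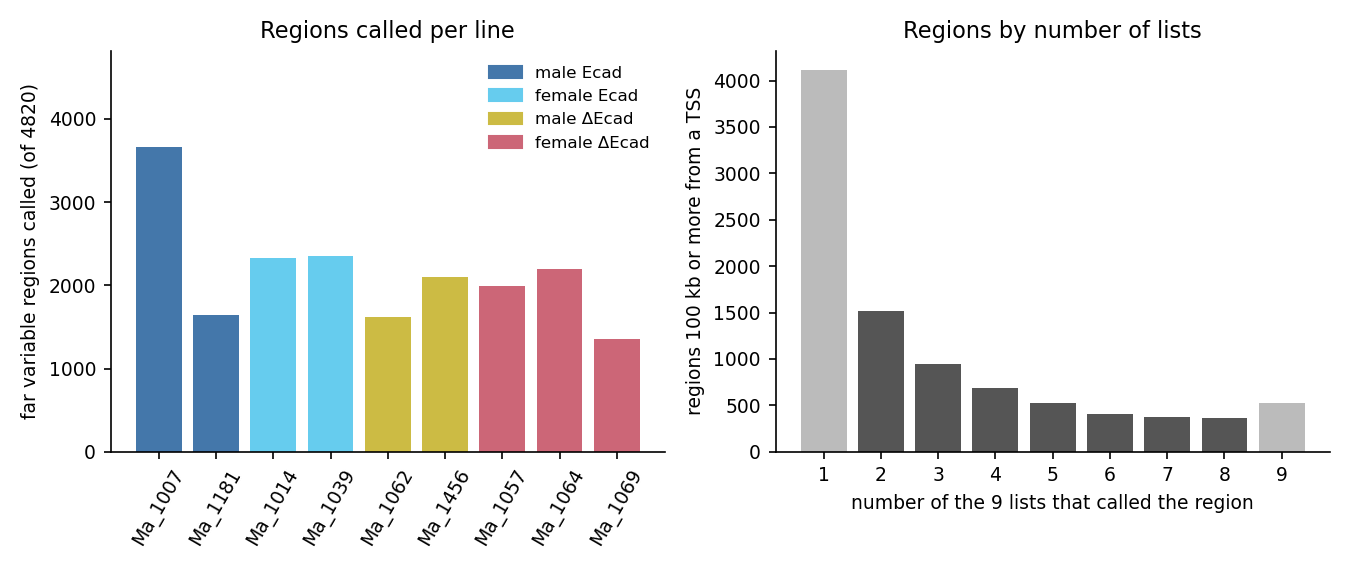
Left, number of the 4820 far variable regions called in each of the 9 lines, coloured by sex and genotype. Ma_1007 called 3662 and the other lines 1358 to 2350. Right, number of autosomal regions 100 kb or more from a TSS by the number of lists that called them. Dark bars are the members (2 to 8 lists), light bars the regions in 1 list (4116) and 9 lists (523).

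The lists shared members unequally. The female Ecad lines Ma_1014 and Ma_1039 shared 1840 members, 79.0% and 78.3% of the members each called. Among the female ΔEcad lines, Ma_1057 shared 1383 with Ma_1064 (69.3% and 63.1%) and 1026 with Ma_1069 (51.4% and 75.6%), whereas Ma_1064 and Ma_1069 shared 709 (32.3% and 52.2%). The male ΔEcad lines Ma_1062 and Ma_1456 shared 840 (51.9% and 39.98%), fewer than Ma_1062 shared with the female Ecad line Ma_1039, which was 1190 (73.5% of Ma_1062 and 50.6% of Ma_1039). The male Ecad lines shared 1332 members, 36.4% of those of Ma_1007 and 81.2% of those of Ma_1181. The commonest set of lines was Ma_1007 with Ma_1456 (187 members), followed by Ma_1007 with Ma_1064 (180), Ma_1014 with Ma_1039 (148), all lines but Ma_1069 (126) and Ma_1057 with Ma_1069 (125).

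Gene deserts held the members in clusters. The autosomes had 2104 intervals of 200 kb or more between neighbouring protein-coding TSS, together 1269 Mb. Members lay in 1148 intervals, counting also the chromosome ends, where 4 members had only 1 flanking TSS. An occupied interval held a median of 3 members. There were 314 intervals with 1 member and 108 with 10 or more, and the latter held 1567 members (32.5%). The median distance from a member to the next was 22.5 kb, and 3245 members (67.3%) had another within 50 kb.

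Myc, which encodes a transcription factor that drives growth and proliferation, lay between the 2 deserts with most members. Between Myc and Gsdmc (chr15:61987422-63808759, 1821 kb) there were 70 members, and between A1bg and Myc (chr15:60923012-61985391) there were 32. These stretches also held 45 and 15 far regions called in 1 list, and 9 and 1 called in all 9. On the Gsdmc side Ma_1057 called 67 of the 70, Ma_1007 56, Ma_1014 and Ma_1456 37 each, Ma_1064 23, Ma_1039 21, Ma_1062 15, Ma_1181 10 and Ma_1069 8. The female ΔEcad lines were thus spread from the most to the fewest calls. On the A1bg side Ma_1007 called 26 of the 32, Ma_1069 21, Ma_1057 and Ma_1064 20 each, Ma_1014 14, Ma_1039 13, Ma_1062 9, Ma_1181 6 and Ma_1456 1. Ma_1069 thus had the fewest calls on the Gsdmc side and the second most on the A1bg side, where Ma_1456 had the fewest. The Myc promoter was called in 9 lists and those of Gsdmc and A1bg in 0.

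The calls also differed along each desert. All 42 members with Myc as the nearest gene were called in Ma_1057, against 34 in Ma_1007 and 4 to 18 in the other lines. In the 500 kb after the first Myc TSS, Ma_1057 called 17 of 17 members, Ma_1007 13, Ma_1456 9, Ma_1014 and Ma_1064 7 each, Ma_1062 4, Ma_1039 3, and Ma_1181 and Ma_1069 1 each. In the next 500 kb Ma_1057 called 20 of 20 and Ma_1007 15, the other lines 2 to 8. From -600 to -400 kb, Ma_1007 and Ma_1069 each called 10 of 12, Ma_1057 9, Ma_1064 7 and the remaining 5 lines 0 to 4. Over both deserts Ma_1057 called 85.3% of the 102 members and 40.5% of all other members, and Ma_1007 80.4% and 75.9%. A region had to be in at least 2 lists to be a member. Some members beside Myc were in only 2 lists, 1 of them that of Ma_1057, and met the rule only through its call. The counts and shares of Ma_1057 beside Myc are thus partly set by the rule, as are those of any line. Ma_1181 called 15.7% and 34.4%, and Ma_1069 28.4% and 28.2%. The median fold enrichment (peak height over local background) of the called members beside Myc was 9.87 in Ma_1057 and 8.26 for its other members, and 10.1 and 8.30 in Ma_1069. It was also higher beside Myc in Ma_1456 (10.04 and 8.56), Ma_1181 (8.09 and 7.42), Ma_1062 (8.40 and 8.07) and Ma_1007 (6.85 and 6.7). It was lower beside Myc in Ma_1014 (6.71 and 8.04), Ma_1039 (6.40 and 7.39) and Ma_1064 (7.88 and 8.51). Peaks on chromosome 15 made up 5.06% of the autosomal peaks of Ma_1057, within the 4.34% to 5.35% of the 9 lists. This share is of the whole chromosome and does not describe the stretch beside Myc.

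**Figure D2:**
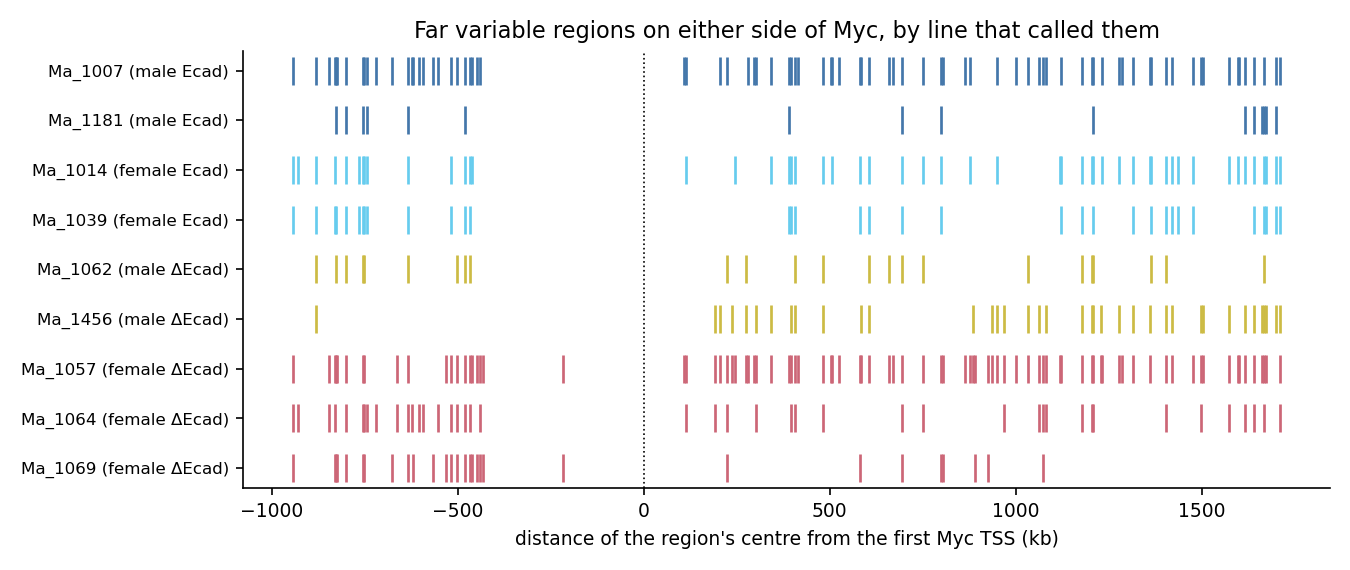
Position of the 102 members on either side of Myc by distance of their centres from the first Myc TSS in kb (negative, A1bg side). Each row is a line, each tick a member called in it, coloured by sex and genotype, and the dotted line marks the TSS. Ma_1057 called 67 of 70 members to the right and 20 of 32 to the left, Ma_1069 8 and 21, and Ma_1456 37 and 1.

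The next 8 intervals held 21 to 27 members each. Rad51b (DNA repair) and Zfp36l1 (an RNA-binding protein that promotes mRNA decay) bounded an interval of 786 kb on chromosome 12 with 27 members, 19 of them inside Rad51b. Ma_1007 called 21 of these, Ma_1064 20, Ma_1039 19, Ma_1181 18, Ma_1014 14, Ma_1057 13, Ma_1062 9, Ma_1069 6 and Ma_1456 5. The 3697 kb between Zeb2, which encodes a transcription factor of neural crest and melanocytes, and the activin receptor gene Acvr2a on chromosome 2 also held 27 members, of which 8 (Ma_1062 and Ma_1069) to 22 (Ma_1007) were called in a line. Its strongest member (chr2:45627163-45632053), 510 kb from Zeb2, was called in 8 lists and not in Ma_1062. The percentile of that member was 97.3 in Ma_1057, 96.8 in Ma_1064, 98.4 in Ma_1069 (all female ΔEcad) and 94.9 in Ma_1007. It was 71.4 in Ma_1181, 42.9 in Ma_1039, 40.04 in Ma_1014 and 14.5 in Ma_1456, so that the calls ranged from among the strongest to among the weakest peaks of a list.

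Trib2, a pseudokinase gene, and Lpin1 bounded 26 members on chromosome 12, of which Ma_1007 called 24 and Ma_1181 22. The other lines called 3 (Ma_1069) to 16 (Ma_1064), so both male Ecad lines were above every other line there. Adamts5 (a matrix protease) and N6amt1 bounded 23, with 20 calls in Ma_1007 and 0 in Ma_1062. Ly86 and Rreb1 bounded 22 members within 433 kb of chromosome 13, the densest of the first 10 intervals at 5.08 members per 100 kb. There Ma_1007 called 19, Ma_1069 16, Ma_1014 and Ma_1039 14 each and Ma_1456 1. Slc35b3 and Ofcc1 also bounded 22, with 16 calls in Ma_1007, 15 in Ma_1064 and 4 in Ma_1181. The strongest of these (chr13:39416571-39419386) had percentiles of 97.6, 91.3 and 94.7 in Ma_1057, Ma_1064 and Ma_1069, of 67.8 in Ma_1181 and 42.3 in Ma_1007, and no call in the other 4. St3gal1 and Zfat bounded 22 members, of which Ma_1014 called 18, Ma_1007 17 and Ma_1039 13, the other lines 2 to 8. Nudt12 and Efna5, the latter a ligand of Eph receptors, bounded 21 in an interval of 3868 kb, called 3 to 14 times.

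**Figure D3:**
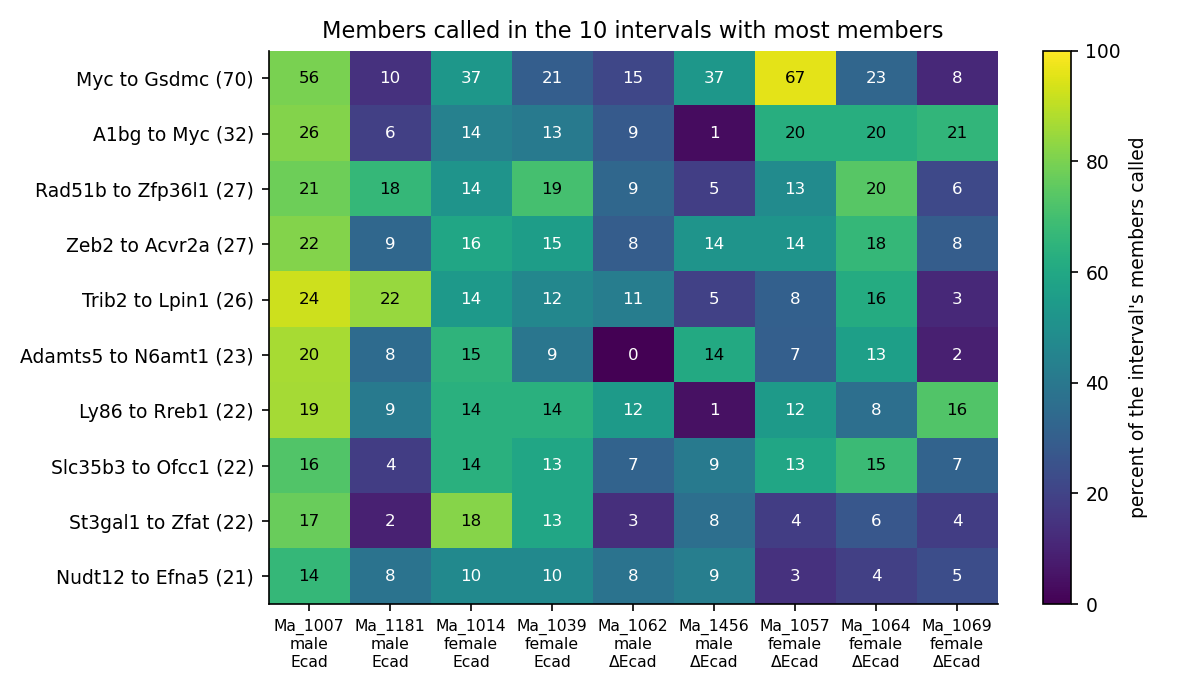
Number of members called (figures in the cells) and the same as a percent of the members of the interval (colour) for the 10 intervals with most members, named by their flanking genes with the number of members in brackets, in each of the 9 lines. Ma_1057 called 67 of 70 between Myc and Gsdmc, Ma_1456 1 of 32 between A1bg and Myc and 1 of 22 between Ly86 and Rreb1, and Ma_1062 0 of 23 between Adamts5 and N6amt1.

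Members of the same desert had more similar sets of lines than members of different deserts. The mean correlation of calls over the 9 lists was 0.43 for 896 pairs in 1 interval with centres under 10 kb apart, 0.33 at 10 to 50 kb, 0.27 at 50 to 200 kb and 0.23 at 200 kb or more. It was 0.098 for pairs in different intervals of 1 chromosome and 0.083 for pairs on different chromosomes. Identical sets of lines were seen in 8.71% of the pairs under 10 kb apart and in 1.21% of the pairs on different chromosomes. These are descriptions over pairs that share lists, with no test.

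The strongest members were few. Averaged over the lists that called it, the percentile of a member had a median of 39.6 and ranged from 0.795 to 98.7, with 13 members at 90 or more and 156 under 10. The strongest (chr4:47601218-47605818) lay between Sec61b, 126 kb away, and Nr4a3, which encodes an orphan nuclear receptor. It was called in 3 lists with percentiles of 99.6 in Ma_1456, 99.0 in Ma_1064 and 97.7 in Ma_1057, and fold enrichments of 38.6, 45.2 and 38.8. The other 6 lists had no peak there. The Nr4a3 promoter was called in these 3 lists and in Ma_1007 and Ma_1062.

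Another of the 10 strongest (chr4:89474737-89482866) lay 164 kb from Cdkn2b, the neighbour of Cdkn2a and like it an inhibitor of the cell cycle, towards Dmrta1. Its fold enrichment was 62.6 in Ma_1057, 47.3 in Ma_1064, 44.3 in Ma_1062, 42.2 in Ma_1456, 38.8 in Ma_1039, 33.0 in Ma_1181, 25.0 in Ma_1014 and 17.3 in Ma_1069, and Ma_1007 had no peak. The Cdkn2b promoter was called in 6 lists, with no call in Ma_1007, Ma_1062 and Ma_1069. Of the 7 members next to Cdkn2b, Ma_1007 called 2, Ma_1181, Ma_1014 and Ma_1069 4 each, Ma_1062 6 and the other lines 7.

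The Grm5 intron shown above (chr7:87923935-87927663) was called in every list but that of Ma_1181, with percentiles of 90.6 (Ma_1064) to 97.6 (Ma_1007). Both the member 387 kb from Rnf144b towards Id4, an inhibitor of bHLH factors, and the Dchs2 intron were called in Ma_1007 and the 3 female ΔEcad lines. The former had percentiles of 97.0, 95.0 and 96.4 in Ma_1057, Ma_1064 and Ma_1069 and of 83.8 in Ma_1007. The latter had 97.8, 94.8 and 90.4 in the same lines and 87.8 in Ma_1007. A member between Mdfic and Tfec, which encodes a relative of MITF, had the same 4 lines but was highest in Ma_1007, at 99.2 against 89.3 to 92.3. Others of the 10 were near Trib2 (8 lists, 92.9 on average, none in Ma_1456), Dio2 (7 lists, 91.3, none in Ma_1057 and Ma_1069) and A430005L14Rik (6 lists, 91.3).

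Transcription factor genes of the neural crest and melanocyte lineage often neighboured members, as did cadherin genes. A gene was counted as next to a member if it was the nearest protein-coding gene or flanked it. This held for 1824 of 20780 protein-coding autosomal genes (8.78%), and no list was tested against this share. Only a gene beside a long interval can be next to a member, and the share among such genes was not computed. Every gene list exceeded 8.78%, from 18.2% for AP-1 genes to 82.6% for cadherins and protocadherins. An excess over that share is therefore not particular to the melanocyte lineage. Of 27 transcription factor genes of neural crest and melanocytes, 20 were next to a member, and together they adjoined 217 members. Sox9, which directs chondrocytes and is also made in melanocytes, adjoined 27 members, of which Ma_1007 called 25, Ma_1014 14, Ma_1181 12 and the others 4 to 9. Its promoter was called in Ma_1007 and Ma_1456. Zeb2 adjoined 27, Nr2f1 20, Sox5 19 and Sox4 15. The promoters of Zeb2, Sox5 and Sox4 were called in 9 lists. That of Nr2f1 was called in 6, with calls missing in Ma_1014, Ma_1039 and Ma_1062, and its 20 members were called 17 times in Ma_1007, 14 in Ma_1456, 10 in Ma_1014 and 0 in Ma_1069.

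Cadherins and protocadherins, the family to which E-cadherin belongs, had 19 of 23 genes next to a member, with 145 members in all. Pcdh7 adjoined 26, of which Ma_1014 called 22, Ma_1039 20, Ma_1007 19 and the other lines 4 to 11. Its promoter was called in 7 lists, without Ma_1057 and Ma_1069. Cdh11 adjoined 18 members and Cdh8 16, with no promoter call for either. A member flanked by genes of the list on both sides counted for each of them. Cdh11 was the nearest gene of 12 of its members and Cdh8 of 1. At Cdh11 Ma_1007 called 15, Ma_1057 14, Ma_1069 10 and the other lines 3 to 7, while at Cdh8 Ma_1014 and Ma_1039 called 11 each, Ma_1007 10 and the others 1 to 6. Cdh9 adjoined 15, with its promoter called in Ma_1014 alone, and Cdh6 12.

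The remaining lists adjoined fewer members. Among growth factors and receptors of melanocytes 6 of 17 genes were next to a member, the neuregulin receptor gene Erbb4 with 7 members, Kit with 5, and Ednrb and Nrg1 with 4 each. Of the 5 members next to Kit, the receptor for stem cell factor, Ma_1007 called 5 and Ma_1456 0, and the Kit promoter was called in 5 lists that included Ma_1007 and not Ma_1456. Of 11 autosomal pigment genes 5 were next to a member. Dct, which encodes an enzyme of melanin synthesis, adjoined 10, of which Ma_1007 called 10, Ma_1062 8 and Ma_1069 0, although its promoter was called in 9 lists. Slc24a5 adjoined 9, Oca2 6, and Rab38 and Tyrp1 2 each.

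Wnt and β-catenin genes had 9 of 23 next to a member. Lef1, a partner of β-catenin on DNA, adjoined 7 members, of which Ma_1069 called 7, Ma_1007 and Ma_1057 4 each, Ma_1181 and Ma_1456 3 each, Ma_1039, Ma_1062 and Ma_1064 1 each and Ma_1014 0. Ctnnb1, which encodes β-catenin, adjoined 5, and Fzd8 and Rspo3 3 each. YAP and TEAD genes had 3 of 13, with 11 members at Crim1, 4 at Ccn2 and 2 at Ankrd1. The Crim1 promoter was called in the 4 Ecad lists and in no ΔEcad list, and its members were called 9 times in Ma_1007 and in Ma_1014, 8 in Ma_1039, 3 in Ma_1181, 7 in Ma_1456, 5 in Ma_1062 and 2 in each female ΔEcad line. AP-1 genes had 2 of 11 next to a member (Maf with 8 members and Jun with 4) and nuclear receptors 9 of 20. Rarb, a retinoic acid receptor gene, adjoined 10, Nr4a2 6, and Esrrg and Pgr 4 each. The cell cycle and survival genes had 4 of 10, namely Myc (102 members), Cdkn2b (7), Mycn (5) and Bcl2 (4).

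Calls of members went with calls of the promoter of the nearest gene, a measure that the rule had not used. The nearest gene had a promoter called in all 9 lists for 1419 members (29.4%), in 0 for 1538 (31.9%) and in 1 to 8 for 1863 (38.7%). In this last set, which had 556 genes, members were called in 53.1% of the cases in which the promoter was called in the same line and in 36.1% of those in which it was not. Among the 9 lines the former share was higher in each, from 36.5% against 30.9% in Ma_1062 to 57.0% against 40.9% in Ma_1064. After the means of each region and each line had been removed, the correlation of region and promoter calls was 0.14, with p = 2.76e-06 in an exact two-sided permutation test over all 362880 ways to pair the 9 lines' region calls with the 9 lines' promoter calls, the smallest p that the test can give. The correlation was 0.18 for the 919 regions at 100 to 200 kb, 0.10 for the 671 at 200 to 500 kb and 0.11 for the 273 farther away. For variable regions at 1 kb or more and under 100 kb from a TSS, called nearer regions below, it was 0.23 (8069 regions, 3116 genes, 56.8% against 33.4%), and the difference from the far regions was not tested. It stayed between 0.11 and 0.17 in every alternative setting.

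**Figure D4:**
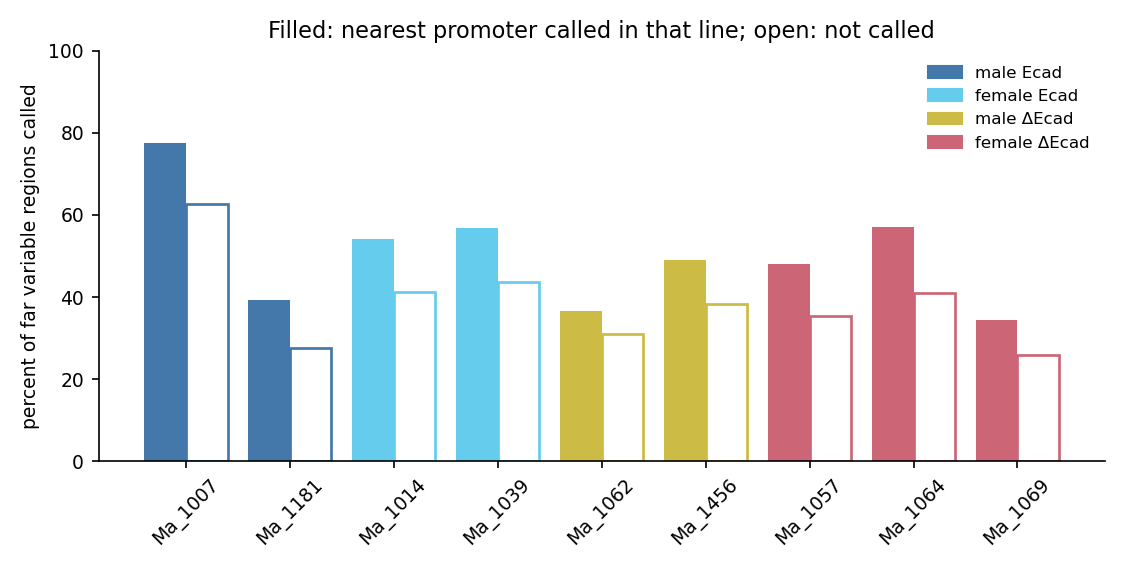
Percent of the 1863 members with a variable nearest promoter that were called in each of the 9 lines, where that promoter was called in the same line (filled bars) and where it was not (open bars), coloured by sex and genotype. The filled bar is higher in all 9 lines, for example 77.5% against 62.7% in Ma_1007 and 34.3% against 25.9% in Ma_1069.

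Far members were slightly stronger than the 18495 nearer variable regions when any peak of a line within a merged region counted as a call. The median percentile of called members was 43.8 ± 4.07 (SD over 9 lines) and that of nearer regions 41.6 ± 3.54. The difference was 2.14 ± 1.11 percentile points, from 0.365 in Ma_1039 to 4.50 in Ma_1069, and far regions were higher in 9 of 9 lines (p = 0.00391, exact two-sided sign-flip permutation test over lines, the smallest p it can give). The lists share regions, so the 9 differences are not fully independent. The difference turned to -0.535 (exact permutation p = 0.406) when a call required peaks over 50% of the merged region, and was 1.06 (exact permutation p = 0.0938) with the starts of all genes.

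The DNA at the summits also differed. In the 300 bases around the summit, G+C was 42.2% ± 0.531 in members and 45.4% ± 0.492 in nearer regions, lower in 9 of 9 lines with differences of -3.93 to -2.57 percentage points. Bases masked as repeats were 16.9% against 18.4%, also lower in 9 of 9. Called peaks were 1092 bp wide against 1047 bp, and wider in 9 of 9. The exact sign-flip permutation test gave an adjusted p of 0.00391 for each of the 3 features. The difference in width reversed to -24.8 bp when 50% of the region had to be covered and to -8.28 bp in the stronger 50% of each list. The difference in repeats was -0.173 points (adjusted p = 0.469, exact permutation) with a limit of 200 kb.

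Matches to short motifs were counted on both strands of the same windows. They were TGACTCA for AP-1, ACAATGG or AACAATG for SOX factors, CTTTGAA or CTTTGAT for TCF/LEF, GGAATGC or GGAATGT for TEAD, TCACGTG or TCATGTG for MITF, ACCGGAAG or ACAGGAAG for ETS, TGTGGTT for RUNX and GCCNNNGGC for TFAP2. The forms of SOX share letters, and a window with overlapping matches counted once. A match is a run of letters and not proof of binding. Of the members, 754 (15.6%) held a TCF/LEF match, 446 (9.25%) a SOX match, 398 (8.26%) TEAD, 354 (7.34%) MITF, 323 (6.70%) RUNX, 287 (5.95%) AP-1, 237 (4.92%) ETS and 219 (4.54%) TFAP2. The shares over all autosomal regions were 11.9%, 7.21%, 7.43%, 6.996%, 6.42%, 5.56%, 4.86% and 9.84% in the same order.

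TCF/LEF and SOX letters were more frequent, and TFAP2 letters less frequent, in members than in nearer regions. TCF/LEF matches were held by 16.1% ± 0.665 of called members and 13.2% ± 0.669 of called nearer regions (SD over 9 lines), a difference of 2.95 points that was positive in 9 of 9 lines (adjusted p = 0.0156, exact sign-flip permutation test, adjusted over the 8 motifs). SOX matches were held by 9.47% against 8.15%, higher in 8 of 9 lines with Ma_1456 the exception (adjusted p = 0.0313, exact permutation). Without Ma_1007, Ma_1181, Ma_1014, Ma_1062 or Ma_1064 the SOX difference was 1.12 to 1.32 points and the adjusted p 0.0625 (exact permutation). TFAP2 matches were held by 4.78% against 7.08%, lower in 9 of 9 (adjusted p = 0.0156, exact permutation). For TEAD and ETS the differences were 0.430 and -0.325 points (adjusted p = 0.0813 for both, exact permutation). TEAD passed in 5 alternatives, with 0.366 to 1.64 points, and ETS passed at a limit of 200 kb (-1.11) and without Ma_1069 (-0.434). The differences were 0.036, -0.016 and 0.055 points for AP-1, MITF and RUNX (adjusted p = 0.930 for each, exact permutation), of which MITF passed at 50 kb (-0.576) and RUNX with the starts of all genes (1.05).

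Base composition moved with these shares. Far windows had less G+C, and within 4 classes of G+C (under 40%, 40 to 45%, 45 to 50% and 50% or more) the differences shrank to 1.33 points for TCF/LEF (8 of 9 lines, adjusted p = 0.0625), 0.691 for SOX (adjusted p = 0.237) and -0.551 for TFAP2 (adjusted p = 0.104), all by the exact sign-flip permutation test. None of the 8 motifs passed the threshold there, with 3 at an unadjusted exact p under 0.05 (TCF/LEF, TEAD and TFAP2). The same letters reversed and not complemented also differed in 9 of 9 lines, by 1.84 points for TCF/LEF, 0.784 for SOX and -0.508 for TFAP2. So did the reversed letters of MITF (-0.637) and ETS (-0.525), whose own letters had not passed. Each of these reversed motifs had an adjusted p of 0.00625 (exact sign-flip permutation test), and those of AP-1, TEAD and RUNX did not pass.

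**Figure D5:**
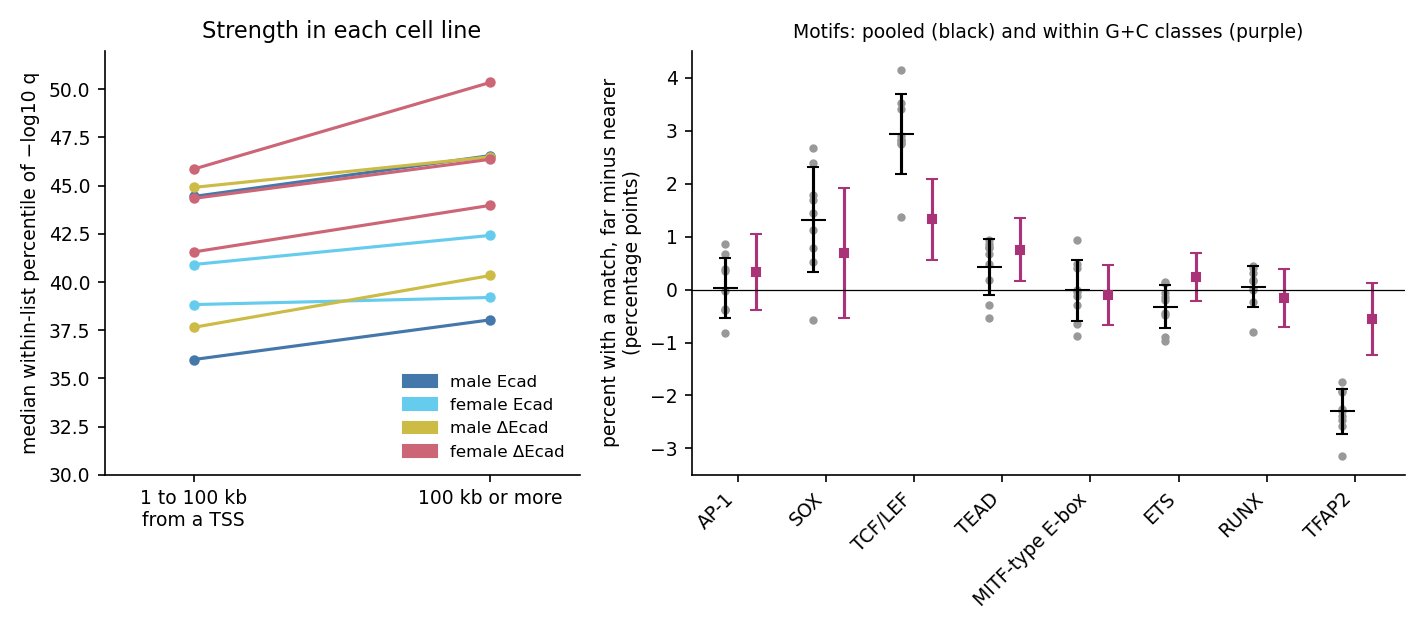
Left, median within-list percentile of −log10 q of called regions at 1 to 100 kb and at 100 kb or more from a TSS, joined for each of the 9 lines and coloured by sex and genotype. The axis starts at 30, and the far value is higher in 9 of 9 lines. Right, percent of called regions with a motif match, far minus nearer, in percentage points. Grey points are lines, black bars their mean ± SD, and purple squares the mean ± SD over lines within classes of G+C. The TCF/LEF mean is 2.95 pooled and 1.33 within classes.

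The groups of lines did not pass the test in these measures. The excess in percentile of far over nearer regions was 2.65 ± 1.12 in the ΔEcad lines (SD, n = 5) and 1.51 ± 0.812 in the Ecad lines (n = 4), a difference of 1.13 (exact two-sided permutation p = 0.135 over 126 assignments, adjusted p = 0.202 over 3 comparisons). Female and male lines differed by 0.051 (exact permutation p = 0.944), and the female ΔEcad lines exceeded the other 6 by 1.26 (exact permutation p = 0.0952, adjusted p = 0.202). The genotype difference rested on Ma_1069, without which it was -0.052. It passed the exact permutation test in 3 alternatives, with 2.85 where 50% of the region had to be covered (adjusted p = 0.0476), 2.36 at a limit of 200 kb and 0.042 on the log2 scale of fold enrichment (adjusted p = 0.0238 for both). With the starts of all genes, the female minus male difference was 2.41 and that of the female ΔEcad lines from the others 2.60, both past the exact permutation test (adjusted p = 0.0238). TCF/LEF matches were held by 16.3% ± 0.888 of the members called in female ΔEcad lines and 16.0% ± 0.590 in the other lines (exact permutation p = 0.512), and TEAD matches by 8.27% ± 0.382 and 8.57% ± 0.474 (exact permutation p = 0.393). Of the 24 comparisons of 8 motifs between groups, 0 passed the exact permutation test after adjustment and 0 had an unadjusted p under 0.05, the smallest adjusted p being 0.786.

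Few members were called in all lines of a single group and in no other line. There were 40 such members for the female ΔEcad lines (0.830% of the members, where 0.831% of all variable autosomal regions under 10 kb had this pattern) and 46 for the Ecad lines (0.954%, against 1.04%). The 5 ΔEcad lines had 0 (against 0.0066%), the 5 female lines 3 (0.0622%, against 0.0495%) and the 4 male lines 5 (0.104%, against 0.261%). The pattern was thus about as frequent in members as among all variable regions, which include the members, for the female ΔEcad and the Ecad lines. Among nearer regions alone the shares were 1.065% for the female ΔEcad lines, above that of the members, and 0.6705% for the Ecad lines, below it. Because presence in the lists chose the members, nothing further is read from these counts. Leaving out a line changed these counts, with fewer lists left to meet the pattern. Without Ma_1007, 127 of 4017 members were called in the female ΔEcad lines only. Without Ma_1064 it was 167 of 4481 in the other female ΔEcad lines only, and without Ma_1069 107 of 4472. Without Ma_1181, 169 of 4534 were called in the other Ecad lines only, and without Ma_1062 102 of 4659 in the Ecad lines only. The share of all variable regions with the pattern was not computed for these settings.

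The strongest member of the female ΔEcad lines alone (chr13:101440793-101443459) lay over a non-coding gene 249 kb from Pik3r1, which encodes a regulatory subunit of PI3-kinase. Its fold enrichment was 20.98 in Ma_1057, 12.97 in Ma_1064 and 13.3 in Ma_1069, and its percentiles were 85.3, 69.7 and 74.5. The Pik3r1 promoter was called in 9 lists. Next in strength were members near Pabpc6, in an intron of the formin gene Fhod3, and near Gm9008 and Creb1. Weaker ones had Twist1, Sox5, Id2 or Runx1 as the nearest gene, which were named after their values were seen.

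The strongest member of the Ecad lines alone (chr9:78771131-78774737) lay 155 kb from Cd109, which encodes a cell surface protein, towards Col12a1. Its fold enrichment was 26.0 in Ma_1007, 11.4 in Ma_1181, 15.3 in Ma_1014 and 15.5 in Ma_1039. The Cd109 promoter was called in Ma_1456 alone, a line without the member. The second (chr15:56497343-56500356) lay 194 kb from Has2, the gene of a hyaluronan synthase, with fold enrichments of 13.1, 10.1, 18.96 and 13.7 in the same order. Others were near Hs3st1, in Trappc9 and in an intron of Msi2. Among female lines the strongest was the Tmeff2 intron shown above, with percentiles of 43.5 in Ma_1014, 14.5 in Ma_1039, 65.4 in Ma_1057, 79.6 in Ma_1064 and 48.3 in Ma_1069. Among male lines it was a member 256 kb from Atp10a (chr7:58397709-58399739), with 53.7 in Ma_1007, 12.4 in Ma_1181, 25.2 in Ma_1062 and 79.3 in Ma_1456. The members of these last 2 patterns were thus weak in at least 1 line.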

How the data were processed

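Chromatin of 9 lines was precipitated with an H3K27ac antibody, and per the labels' processing notes reads were handled with Bowtie2 2.4.5, MACS2 2.2.7.1 and deepTools 3.5.1.0.0 on GRCm38 (mm10). Peak calling settings and the control of each list are not given in the sources used here, and the 4 input libraries were not analysed. Each deposited list gives, for each peak, a score, the fold enrichment over local background as a linear ratio, −log10 p and −log10 q by the authors, and the summit offset. The lowest deposited −log10 q was 5.0. The lists hold no read counts, so depth is unknown, no counting interval can be given, and a missing call is not absence of the mark.

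Peaks were merged and classed with GENCODE M21 (GRCm38) in Python 3.11.15 with numpy 2.4.6 and pandas 2.3.3. Genome sequence came from RefSeq GRCm38.p6, soft-masked. Strength was the percentile of −log10 q within a list. Lines were the replicates, grouped by labelled sex and genotype. Tests were exact permutations over lines, two-sided at 0.05 with Benjamini-Hochberg adjustment, and were tested on simulated data. The members, gene lists, motifs and tests were chosen with earlier results of these data known. Named genes were the flanks of the 10 intervals with most members, the nearest genes of the 10 strongest members, up to 5 genes per list with most members, and the nearest gene of the strongest member of each single-group pattern. Of the 10 strongest members, 1 is not reported here. Sequences are the windows of the strongest member of 3 of those patterns and of the Grm5 and Dchs2 introns, the last pair chosen after their values were seen. Windows planned for the strongest member of the 3 intervals with most members and of the male pattern held no match and are not shown. Alternatives changed the peak threshold, list length, overlap, distance limit, start sites, window, gene pairing and lines.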

Additional observations from a re-analysis of the deposited data

Results flagged for a closer look

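Dixon's criterion at 95% was applied to 68 sets of 4 or 5 lines, and 5 values stood apart from their group, where chance gives about 1 in 20. Among the Ecad lines, the deficit of masked repeats in far against nearer regions was smallest in Ma_1014, at -0.732 points. Members with AP-1 letters were 7.07% in Ma_1181, high among Ecad lines. Members with RUNX letters were 6.46% in Ma_1181, low among male lines. Members with TFAP2 letters were 4.10% in Ma_1064, low both among ΔEcad and among female lines. For masked repeats, the far minus nearer value of each female ΔEcad line was below that of each female Ecad line (mean difference -0.858 points), and that of each male ΔEcad line was above that of each male Ecad line (mean difference 0.257 points). The difference between the sexes was not tested.

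The X chromosome, outside the rule, held 126 regions that met the rest of it. They were called 16 (Ma_1062) to 74 times (Ma_1014), with 61 in Ma_1007, 39 in Ma_1181, 70 in Ma_1039, 51 in Ma_1456, 55 in Ma_1057, 40 in Ma_1064 and 46 in Ma_1069.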

How the results depend on the processing

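No paired analysis was possible because each list is from a different line and the replicate numbers were given in order of deposition. Of the alternatives, the classes of G+C and the reversed letters were chosen after seeing the data. The link to promoters kept its direction and its side of the threshold in every alternative (0.106 to 0.166), as did G+C (-4.00 to -2.44). The number of members was 2289 in the stronger 50% of each list, 7878 at 50 kb, 2506 at 200 kb and 1072 with starts of all genes, and 4017 to 4659 when a line was left out. The cause of each change below was not tested.

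Strength of far against nearer regions was -0.535 with 50% of a region covered and 1.06 with starts of all genes (1.85 to 2.97 without a line). Masked repeats gave -0.173 at 200 kb. Peak width gave -8.28 bp in the stronger 50%, 19.3 bp in equally long lists, -24.8 bp with 50% covered, 19.8 bp at 200 kb and 1.83 bp with all starts. The number of motifs past the threshold was 5 at 50 kb, 5 with all starts and 0 within classes of G+C (2 to 4 without a line). AP-1 was -0.177 in the stronger 50%, -0.066 with 50% covered, -0.546 at 200 kb and -0.038 at equal numbers of lists (-0.194 to 0.137 without a line). TEAD passed the threshold at 0.489 in the stronger 50%, 0.838 in equally long lists, 0.733 with 50% covered, 0.366 at 50 kb and 1.64 with all starts. MITF was 0.312 with 50% covered and passed at -0.576 at 50 kb (-0.117 to 0.0938 without a line). ETS was 0.240 within classes of G+C and passed at -1.11 at 200 kb and -0.434 without Ma_1069. RUNX was -0.483 in the stronger 50%, -0.031 at 200 kb and -0.158 within classes of G+C, and passed at 1.05 with all starts (-0.011 to 0.170 without a line). Leaving out any of 5 lines ended the SOX call, as did the 150-base window and the classes of G+C.

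ΔEcad minus Ecad strength was 2.85 with 50% covered, 2.36 at 200 kb and 0.042 (log2 scale) for fold enrichment, each past the threshold, and -0.052 to 2.25 without a line. Female minus male was -0.074 in the stronger 50%, -0.288 with 50% covered, -0.048 at 200 kb and, past the threshold, 2.41 with all starts (-0.176 to 0.516 without a line). Female ΔEcad minus others was 2.60 with all starts, past the threshold (0.621 to 2.54 without a line). Members in a single group depended on settings, for which the share of all variable regions with the same pattern was not computed. In the stronger 50%, equally long lists, at 50 kb, at 200 kb and with all starts, Ecad lines had 11, 6, 73, 22 and 7. Female ΔEcad lines had 74 in equally long lists, 77 at 50 kb, 16 at 200 kb and 10 with all starts. Female lines had 1, 6, 5, 1 and 0 in those settings and 1 with 50% covered, male lines 2, 3, 9, 1 and 3, and ΔEcad lines 1 in the stronger 50% and in equally long lists. Without a line the counts were 40 to 167 (female ΔEcad), 49 to 169 (Ecad), 0 to 6 (ΔEcad), 3 to 21 (female) and 5 to 28 (male).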

Other observations

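Other deserts, chosen after their values were seen, had members that went with particular lines, and none of these patterns was tested. Between Serp2 and Lacc1 on chromosome 14, 15 members were called 13 times in Ma_1057, 13 in Ma_1064 and 8 in Ma_1069, and 0 times in Ma_1014 and in Ma_1039, the female Ecad lines. The male lines called 8 (Ma_1007), 5 (Ma_1181), 3 (Ma_1062) and 9 (Ma_1456). Between Gm5148 and Ankrd50 the same female ΔEcad lines called 11, 10 and 5 of 15 members, the female Ecad lines 0 and 3, and the male lines 10, 4, 2 and 3. The opposite was seen between Bckdhb and Gm11114 on chromosome 9, where Ma_1057, Ma_1064 and Ma_1069 called 1, 2 and 0 of 16 members and Ma_1014 and Ma_1039 called 9 and 15. Ma_1007 called all 16 there.

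Intervals beside transcription factor genes differed by line as well. Between Foxc1, a gene of neural crest development, and Gmds, Ma_1069 called 15 of 15 members although it called the fewest members in total, and Ma_1456 called 1. All 15 lay inside a protein-coding gene, so that this interval is no gene desert. Between Cmpk2 and Sox11, Ma_1007 called 13 of 14 and Ma_1064 12, with 0 to 6 in the other lines. Between Bcl11a and 5730522E02Rik, Ma_1014 called 14 of 15 and Ma_1039 11, whereas Ma_1007, with the longest list, called 4.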
